A study of Mus musculus with 6 samples.

Results

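The genes described here are 40 genes of ribosome biogenesis and Myc, 41 of the 31130 genes in the deposited count tables. They were taken by gene symbol, and each symbol matched 1 gene. RNA had been sequenced from tumor tissue of the LC model (3 mice) and of the IP + LC model (3 mice), with the question how expression in lung tumors differs when the lung is fibrotic. Female wild-type C57BL/6 mice, 6 to 8 weeks old, carried Lewis lung carcinoma (LLC) cells, 1 established mouse lung cancer line labelled with EGFP, injected into the left lung in both groups. The IP + LC mice had first received bleomycin, which damages lung tissue and causes fibrosis (interstitial pneumonia, IP), at 2.0 mg/kg by oropharyngeal aspiration 2 weeks before the cells. No bleomycin is stated for the LC model, and tumors of both groups were taken on day 21. The values are counts of unique molecular identifiers (UMIs), each marking 1 captured mRNA molecule at its 3′ end.

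Ribosomes are assembled from ribosomal RNA (rRNA) and ribosomal proteins, mostly in the nucleolus. RNA polymerase I transcribes the rRNA precursor. Small nucleolar ribonucleoproteins of the box C/D and box H/ACA classes methylate it and convert uridines to pseudouridine, and many assembly factors, helicases and nucleases cut it and fold it into the small and the large subunit. Myc is a transcription factor that binds, together with Max, the E-box sequence CACGTG, and genes of ribosome biogenesis are among its best known targets.

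The labels give lung cancer cells as the cell type, but the source was tumor tissue, and the libraries held transcripts of many cell types. Markers of type 2 alveolar cells (8 genes) summed to 35991 to 45092 counts per 1000000 UMIs of the tested genes (CPM, after TMM scaling) in the LC tumors and to 6568 to 11833 CPM in the IP + LC tumors. Markers of endothelium, macrophages, fibroblasts, B cells and T cells were also found in each tumor. In such bulk tissue, fewer cells of a type and less RNA per cell cannot be told apart. The libraries held 1336919 to 1631066 UMIs, except LC replicate 1 with 592733. A level of 3 UMIs, the limit that a count of 0 allows, was 5.17 CPM in LC replicate 1 and 1.75 to 2.54 CPM in the others. The spread between tumors (biological coefficient of variation) was 34.4% in the LC group, 13.7% without LC replicate 1, and 11% in the IP + LC group. LC replicate 1 is therefore shown by its own value, or by the result without it, where it decides a call. Intervals and limits cover counting error only.

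Because Myc is one of the genes, the promoter windows of the others were searched for CACGTG, which reads the same on both strands. RefSeq windows on GRCm38.p6, from 250 bases before to 50 bases after the gene start, were matched for 35 of the 41 genes, and 8 of the 35 (22.9%) held the motif. Of all tested genes with a window the motif was found in 11.8%, and of all genes with a window in 8.09%. The 8 sites are given as 30 bases each, because they are the places in these promoters that carry the letters Myc and Max are known to bind. Each is written 5′ to 3′ on the strand of the gene, with the E-box in capitals.
Mybbp1a, chr11:72441347-72441376, + strand: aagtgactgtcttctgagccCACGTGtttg
Nop2, chr6:125131811-125131840, + strand: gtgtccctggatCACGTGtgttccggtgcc
Pes1, chr11:3963965-3963994, + strand: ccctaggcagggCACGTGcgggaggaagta
Tsr1, chr11:74898092-74898121, + strand: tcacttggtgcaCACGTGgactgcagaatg
Wdr43, chr17:71616220-71616249, + strand: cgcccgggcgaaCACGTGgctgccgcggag
Utp20, chr10:88826765-88826794, − strand: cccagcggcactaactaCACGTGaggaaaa
Pno1, chr11:17211540-17211569, − strand: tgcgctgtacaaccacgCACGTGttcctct
Ltv1, chr10:13193092-13193121, − strand: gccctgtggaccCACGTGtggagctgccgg

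In 7 of the 8 genes the motif began at or after the gene start, and in Nop2 it began 60 bases before it. A match of letters is a description of the window and not evidence of binding. Among the 8 with the motif, 5 rose and the median log2 fold change was 1.18, and among the 26 tested genes whose window lacked it, 18 rose and the median was 1.11. Pes1, Pno1 and Ltv1, at log2 fold changes of 0.37, 0.26 and 0.25, had the motif and did not pass the test.

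Of the 41 genes, 40 passed the filter on low counts, and 27 of these were higher in the IP + LC tumors. The limit was 0.1 on the Benjamini-Hochberg adjusted p of the edgeR quasi-likelihood test over 11240 genes. The number lower was 0 with edgeR, DESeq2 and limma voom. At an unadjusted p below 0.05 it was 1 (Nop10) with edgeR, and other scalings or filters also called Nop10 lower. Of all tested genes, 16.8% were higher and 19.6% were lower. The median log2 fold change was 1.13 over the 40 genes, with a range from -0.61 to 2.41, and 0.02 over all tested genes. All 3 IP + LC tumors lay above all 3 LC tumors in 23 of the 40 genes, against 21.6% of all tested genes. Some genes can pass the filter only through the group where they are high, so the 33 genes above the filter's level (7.41 per 1000000 UMIs of the whole library, without scaling) in every LC tumor were also counted. Of these, 22 were higher, with a median of 1.08. The share of all genes under the same restriction was not counted. With at least 10 UMIs required in every library, 26 of 35 genes were higher, against 19.4% of all genes in that fit.

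**Figure D1:**
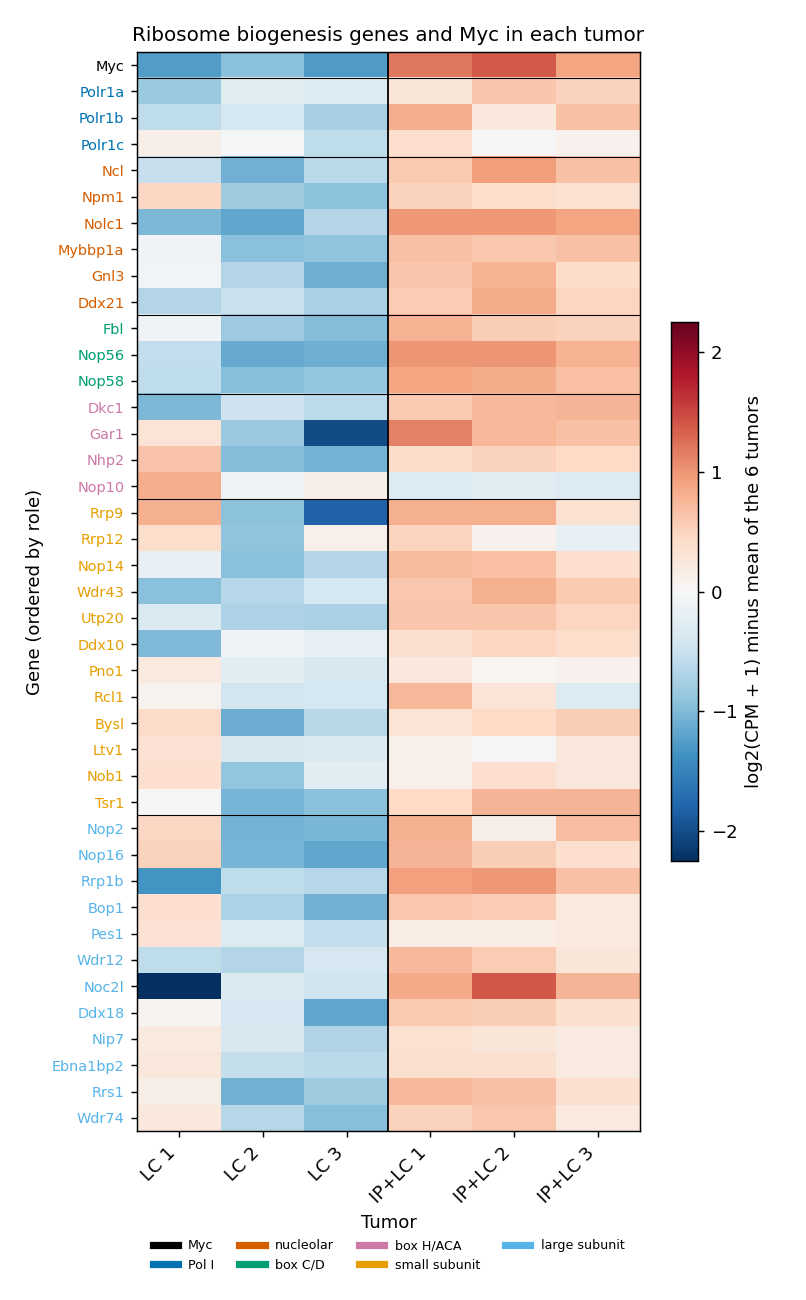
Level of each gene (rows, ordered by role) in each of the 6 tumors (columns), as log2(CPM + 1) minus the mean of the 6 tumors, on a colour scale. Most rows are high in the 3 IP + LC tumors and low in LC replicates 2 and 3, and LC replicate 1 lies above both other LC tumors in 29 of the 40 tested genes.

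As a share of all UMIs, the 41 genes held 0.348%, 0.187% and 0.175% in LC replicates 1, 2 and 3 and 0.521%, 0.541% and 0.481% in the IP + LC tumors. The groups did not overlap, and LC replicate 1 lay between the other LC tumors and the IP + LC tumors. Nucleolin and nucleophosmin are the most abundant of these transcripts. Without Ncl and Npm1 the median log2 fold change was still 1.13, with 26 of 38 genes higher.

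**Figure D2:**
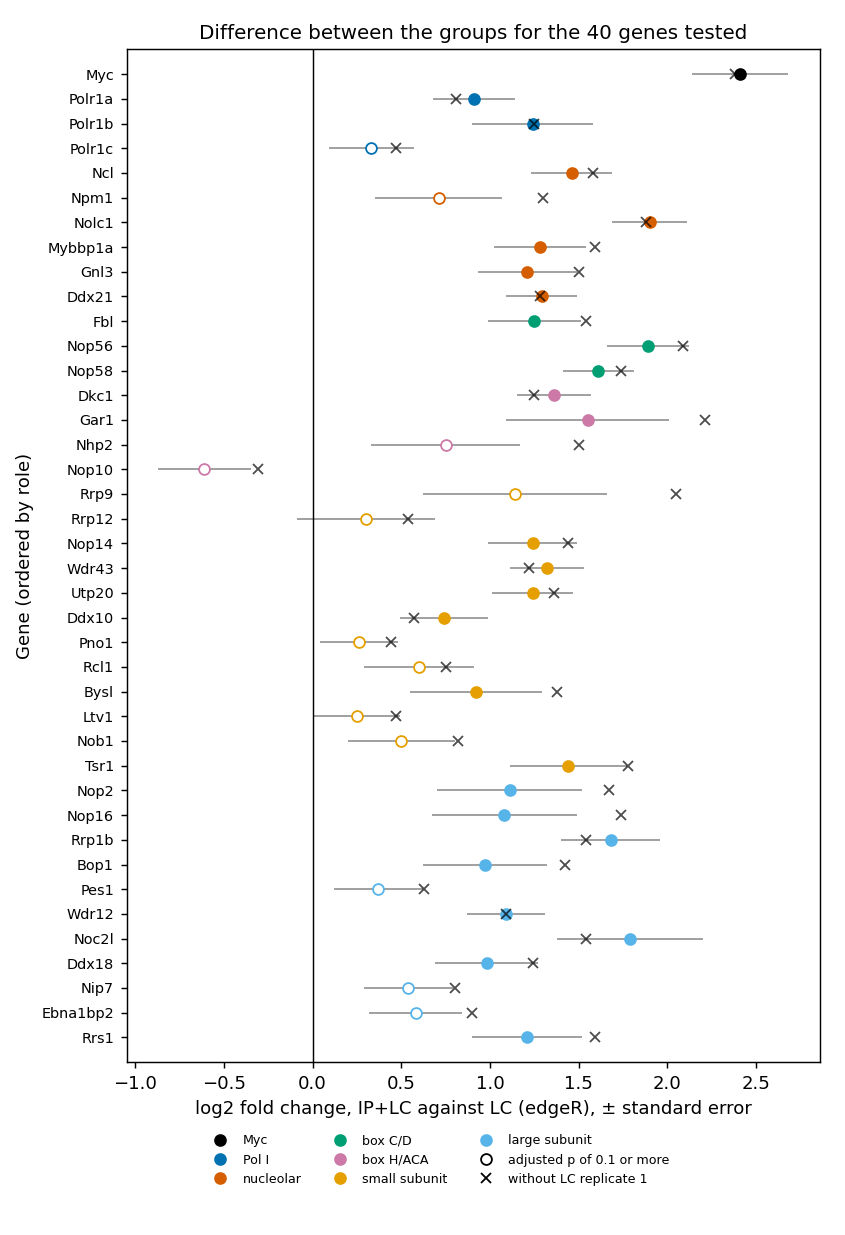
Log2 fold change of IP + LC against LC with its standard error (x axis) for the 40 tested genes (y axis, ordered by role), from the fit to all 6 tumors and from the fit without LC replicate 1. Myc lies farthest to the right at 2.41, and Nop10 alone lies below 0, at -0.61.

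Myc had the largest fold change of the 41 genes. Myc (ENSMUSG00000022346, chromosome 15 of GRCm38 from 61985391 to 61990374, + strand) was counted at 8.61, 11 and 8.47 CPM in LC replicates 1, 2 and 3 and at 51.5, 59.0 and 41.4 CPM in IP + LC replicates 1, 2 and 3. The LC tumors lay close together, LC replicate 1 among them, and every IP + LC tumor was above every LC tumor. The means were 9.35 ± 1.4 and 50.6 ± 8.81 CPM (SD, n = 3). The fitted fold was 5.3, a log2 fold change of 2.41 (standard error, SE, 0.27, adjusted p = 0.000945, edgeR). The counts behind the LC values were low, with 5, 14 and 10 UMIs against 71, 101 and 57 in the IP + LC tumors. The value was 2.38 without LC replicate 1. Over the settings in which Myc was tested it stayed between 2.27 and 2.92, with adjusted p-values of at most 0.0123. It was not tested where at least 10 UMIs were required in every library.

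The partners and antagonists of Myc were listed as a network of 14 genes. Of the 11 tested, 3 rose (27.3%, against 16.8% of all tested genes), 2 fell and the median log2 fold change was 0.19. Max, the partner Myc needs to bind DNA, had 63.7, 49.4 and 45.8 CPM in the LC tumors and 79.8, 70 and 69 CPM in the IP + LC tumors. The groups did not overlap, but the log2 fold change of 0.48 did not pass the test (adjusted p = 0.119, edgeR), and without LC replicate 1 it was 0.62 and passed (adjusted p = 0.00785). In UMIs per UMI of Max, Myc stood at 0.135, 0.222 and 0.185 in the LC tumors and at 0.645, 0.842 and 0.6 in the IP + LC tumors. Mxd3 and Mxd1, which compete with Myc for Max and repress transcription, rose by 2.33 and 1.07 on the log2 scale (3.65 and 0.83 without LC replicate 1), and Mlx, a Max-like factor, rose by 0.84. Mxd3 was not called without LC replicate 2 (adjusted p = 0.102, edgeR). Mxd1 was not called without LC replicate 2, IP + LC replicate 2 or IP + LC replicate 3 (adjusted p up to 0.184, edgeR). Mlx was not called without LC replicate 2, LC replicate 3, IP + LC replicate 1 or IP + LC replicate 2 (adjusted p up to 0.146, edgeR). The call of Mlx was also lost with DESeq2, with thinned counts and with a replicate block. Mxd4 and Mxi1, repressors of the same family, fell by 0.87 and 0.70. Mxd4 had 48.2, 140 and 128 CPM in the LC tumors and 60.2, 57.2 and 60.3 CPM in the IP + LC tumors, so that LC replicate 1 was the lowest tumor, and without it the value was -1.17. Of 16 alternatives, 9 lost the call of Mxd4 and 10 that of Mxi1, among them library size as the only scaling, DESeq2 and leaving out any tumor but LC replicate 1 (adjusted p up to 0.307 and 0.262). Mxd3 rests on few molecules, with 8, 1 and 3 UMIs in the LC tumors. The log2 fold changes of the others were 0.19 for Mnt, 0.21 for Mlxip, -0.19 for Zbtb17, 0.09 for Fbxw7 and -0.05 for Mga (0.12 with library size alone), and none passed the test. The Myc paralogs were too low to test. Mycn was counted at 2, 3 and 4 UMIs in the LC tumors and 0, 4 and 3 UMIs in the IP + LC tumors, and Mycl at 2, 17 and 10 UMIs against 2, 3 and 6. Mlxipl, a glucose-responsive partner of Mlx, had at most 7 UMIs in any tumor and was not tested.

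Of the subunits of RNA polymerase I, Polr1a and Polr1b rose, and Polr1c did not pass the test. Polr1a encodes the largest subunit, with 17.2, 25.9 and 25.4 CPM in the LC tumors and 38.4, 49.0 and 45.7 CPM in the IP + LC tumors. The groups did not overlap, and LC replicate 1 was the lowest tumor. The log2 fold change was 0.91 (SE 0.23, adjusted p = 0.0196, edgeR). Polr1b, the second-largest subunit, rose by 1.24 from 6.88 ± 0.951 to 16.6 ± 3.44 CPM (SD, n = 3), was at 6.89 CPM in LC replicate 1, and did not pass without IP + LC replicate 1 (1.14). With 4, 10 and 7 UMIs it was below the filter's level in every LC tumor, and it passed the filter only through the IP + LC tumors. Polr1c, which RNA polymerase I shares with RNA polymerase III, had 74.0, 65.0 and 44.9 CPM in the LC tumors and 88.5, 67.7 and 72.6 CPM in the IP + LC tumors. These groups overlapped, and the log2 fold change was 0.33 (SE 0.24, adjusted p = 0.337, edgeR), or 0.47 without LC replicate 1 (adjusted p = 0.0618).

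Among the 6 nucleolar proteins, 5 rose and the median log2 fold change was 1.28. Nolc1, a phosphoprotein that chaperones small nucleolar ribonucleoproteins, had 43.0, 38.4 and 55.1 CPM in the LC tumors and 173, 173 and 163 CPM in the IP + LC tumors. The tumors of each group lay close together and far from the other group. The log2 fold change was 1.90 (SE 0.21, adjusted p = 0.000993, edgeR). Npm1 encodes nucleophosmin, a histone and ribosome chaperone, and was the most abundant of the 41 transcripts. It had 1138, 473 and 431 CPM in LC replicates 1, 2 and 3 and 1182, 1084 and 1052 CPM in the IP + LC tumors. LC replicate 1 lay within the IP + LC range, and the other LC tumors lay far below it. With all tumors the log2 fold change was 0.71 (SE 0.36, adjusted p = 0.177, edgeR), and without LC replicate 1 it was 1.30 (adjusted p = 2.4e-06).

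Ncl, the gene of nucleolin, which binds the rRNA precursor, was singled out after its values were seen, as the other highly abundant nucleolar transcript. It had 346, 233 and 324 CPM in the LC tumors and 742, 951 and 783 CPM in the IP + LC tumors. Here LC replicate 1 stood with the other LC tumors, unlike for Npm1, and the log2 fold change was 1.46 (SE 0.23, adjusted p = 0.00289, edgeR). Ddx21, an RNA helicase that links RNA polymerase I transcription with rRNA processing, rose by 1.29. Mybbp1a, a nucleolar Myb-binding protein, rose by 1.28, and Gnl3 (nucleostemin), a GTPase of proliferating cells, by 1.21. Without LC replicate 1 these values were 1.28, 1.59 and 1.5.

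All 3 core proteins of box C/D particles rose, with a median log2 fold change of 1.61. Fbl encodes fibrillarin, the methyltransferase, with 68.9, 40.7 and 36.4 CPM in the LC tumors and 126, 107 and 104 CPM in the IP + LC tumors. The scaffold proteins Nop56 and Nop58 had larger fold changes. Nop56 had 60.3, 40 and 40.7 CPM in the LC tumors and 178, 178 and 154 CPM in the IP + LC tumors, and Nop58 had 91.3, 69.7 and 73.7 against 252, 243 and 217 CPM. In each of the 3 genes LC replicate 1 was the highest LC tumor and was still below every IP + LC tumor. The log2 fold changes were 1.25 for Fbl (SE 0.26, adjusted p = 0.00958, edgeR), 1.89 for Nop56 (0.23 and 0.0012) and 1.61 for Nop58 (0.20 and 0.00137). The ratio of Nop56 to Fbl UMIs was 0.875, 0.981 and 1.12 in the LC tumors and 1.41, 1.67 and 1.48 in the IP + LC tumors. This ratio did not overlap between the groups, whereas that of Nop58 to Fbl did, at 1.32, 1.71 and 2.02 against 1.99, 2.27 and 2.09.

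Of the 4 core proteins of box H/ACA particles, 2 rose and 2 did not pass the test. Dkc1 encodes dyskerin, the pseudouridine synthase, and had 36.2, 53.3 and 49.2 CPM in the LC tumors and 112, 124 and 127 CPM in the IP + LC tumors. It rose by 1.36 (SE 0.21, adjusted p = 0.00269, edgeR), and LC replicate 1 was its lowest tumor. Nhp2, which binds the guide RNA, had 203, 65.8 and 61.9 CPM in the LC tumors and 175, 186 and 178 CPM in the IP + LC tumors. LC replicate 1 was the highest of all tumors, and the other LC tumors were the lowest. The log2 fold change of Nhp2 was 0.75 with all tumors (SE 0.42, adjusted p = 0.215, edgeR) and 1.5 without LC replicate 1 (adjusted p = 1.93e-06).

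Gar1 and Nop10 were singled out after their values were seen. Gar1, which helps the enzyme to release its substrate, spread widely in the LC group, with 75.8, 33.7 and 14.4 CPM against 136, 104 and 98.0 CPM, and rose by 1.55 (adjusted p = 0.0358, edgeR). It was at 2.21 without LC replicate 1 and was not called without LC replicate 2, IP + LC replicate 1 or IP + LC replicate 2 (adjusted p from 0.108 to 0.144). Nop10, a small protein that joins dyskerin to Nhp2, was the only 1 of the 40 genes with a negative log2 fold change, at -0.61 (SE 0.26, adjusted p = 0.105, edgeR). It had 184, 98.7 and 114 CPM in the LC tumors and 84.1, 88.1 and 83.5 CPM in the IP + LC tumors, so that every IP + LC tumor was below every LC tumor, which held for 21.5% of all tested genes. It passed the limit without LC replicate 1, at -0.31 (adjusted p = 0.0985), and without LC replicate 2, at -0.80 (adjusted p = 0.0884). The ratio of Dkc1 to Nop10 UMIs, which does not depend on library size, was 0.196, 0.54 and 0.43 in the LC tumors and 1.34, 1.4 and 1.52 in the IP + LC tumors. The ratio of Nhp2 to Nop10 was 1.1, 0.667 and 0.541 against 2.08, 2.11 and 2.13. Neither ratio overlapped between the groups.

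**Figure D3:**
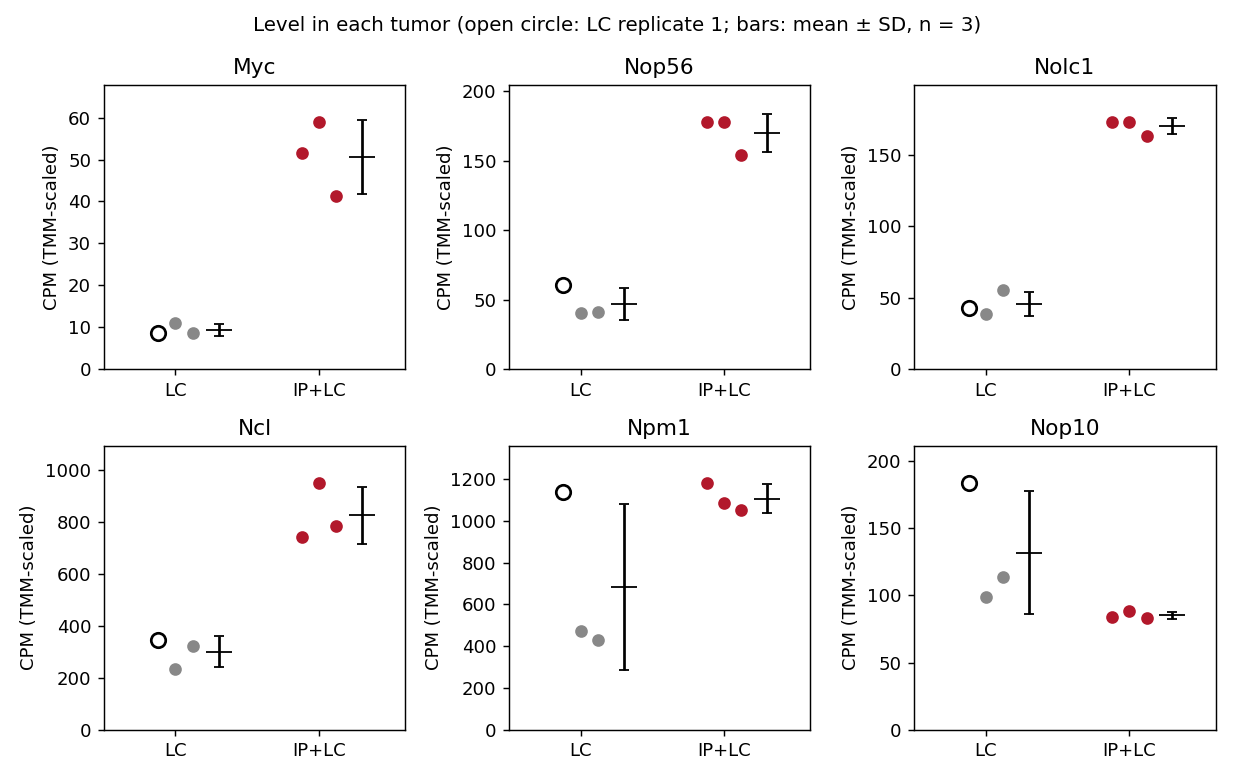
CPM after TMM scaling (y axis) of single genes in each LC and IP + LC tumor (x axis), with the mean ± SD (n = 3) and LC replicate 1 as an open circle. Myc, Nop56, Nolc1 and Ncl separate all tumors by group, LC replicate 1 lies among the IP + LC tumors for Npm1 at 1138 CPM, and Nop10 is lower in every IP + LC tumor.

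The 12 factors of the small subunit had log2 fold changes from 0.25 to 1.44, with a median of 0.83, and 6 of them rose. Wdr43, a subunit of the complex that starts processing on the nascent precursor, had 36.2, 44.7 and 53.4 CPM in the LC tumors and 108, 124 and 107 CPM in the IP + LC tumors. The groups were well apart, with a log2 fold change of 1.32 (SE 0.21, adjusted p = 0.00329, edgeR). Tsr1, an assembly factor related to translational GTPases, rose by 1.44. Nop14 and Utp20, of the early small-subunit particle called the processome, rose by 1.24 each. Bysl, which binds late small-subunit precursors, rose by 0.92, and Ddx10, a helicase, by 0.74. Bysl had 29.3, 9.4 and 13.6 CPM in the LC tumors and 26.8, 29.8 and 31.9 CPM in the IP + LC tumors, so that LC replicate 1 lay within the IP + LC range. It was at 1.38 without LC replicate 1, and its call was lost when any other tumor was left out (adjusted p from 0.166 to 0.329, edgeR). Ddx10 was not called without LC replicate 3 or any 1 of the IP + LC tumors (adjusted p from 0.101 to 0.155).

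The other 6 factors of the small subunit did not pass the test. Rrp12, a factor in the export of pre-ribosomes, had 18.9, 7.05 and 15.3 CPM in the LC tumors and 20.3, 15.2 and 12.3 CPM in the IP + LC tumors. The groups overlapped, and its log2 fold change of 0.30 (SE 0.39, adjusted p = 0.601, edgeR) turned to -0.07 without LC replicate 2. Rrp9, which binds the U3 small nucleolar RNA, had 56.8, 16.5 and 8.47 CPM in the LC tumors and 57.3, 57.2 and 41.4 CPM in the IP + LC tumors, with a log2 fold change of 1.14 (adjusted p = 0.137, edgeR), or 2.05 without LC replicate 1 (adjusted p = 4.25e-05). As for Npm1 and Nhp2, LC replicate 1 was at the IP + LC level and the other LC tumors were below. The late factors Pno1, Ltv1 and Nob1, the last the endonuclease of the final cut of the small-subunit rRNA, had log2 fold changes of 0.26, 0.25 and 0.50. Rcl1, a factor of the early cuts, had 0.60. Without LC replicate 1 these 4 passed the test, at 0.44, 0.47, 0.82 and 0.75, and Rcl1 also passed without IP + LC replicate 3, at 0.85.

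Of the 12 factors of the large subunit, 11 were tested and 8 of them rose, with a median log2 fold change of 1.08. Rrp1b had 6.89, 12.5 and 11.9 CPM in the LC tumors and 37.0, 38.5 and 30.5 CPM in the IP + LC tumors. LC replicate 1 was the lowest tumor, and the log2 fold change was 1.68 (SE 0.28, adjusted p = 0.00348, edgeR). Noc2l, part of a complex that accompanies early large-subunit particles, rose by 1.79, although LC replicate 1 held only 1 UMI of it. Rrs1, which brings the 5S ribonucleoprotein particle into the precursor, rose by 1.21, and Ddx18, a helicase, by 0.98. Rrs1 was not called without LC replicate 2 (adjusted p = 0.105, edgeR), nor Ddx18 without LC replicate 2, IP + LC replicate 1 or IP + LC replicate 2 (adjusted p from 0.11 to 0.128).

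Nop2, an rRNA methyltransferase, and Nop16 rose by 1.11 and 1.08, and their groups overlapped through LC replicate 1. Nop2 had 37.9, 12.5 and 12.7 CPM in the LC tumors and 47.9, 29.8 and 44.3 CPM in the IP + LC tumors. Nop16 had 60.3, 19.6 and 17.8 CPM against 71.1, 61.3 and 54.5 CPM. Without LC replicate 1 the values were 1.67 and 1.74. Both calls were lost when any other tumor was left out, with adjusted p-values from 0.111 to 0.273 for Nop2 and from 0.147 to 0.296 for Nop16 (edgeR).

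Pes1, Bop1 and Wdr12 form the PeBoW complex, which is needed for the cuts that mature the large-subunit rRNA. Pes1 had 60.3, 38.4 and 32.2 CPM in the LC tumors and 53.7, 54.3 and 55.9 CPM in the IP + LC tumors. LC replicate 1 was the highest of all tumors, and the log2 fold change was 0.37 (SE 0.25, adjusted p = 0.299, edgeR), or 0.63 without LC replicate 1 (adjusted p = 0.0113). Wdr12 rose by 1.09, in LC replicate 1 at 25.8 CPM against 24.3 and 29.7 CPM in the other LC tumors and 47.2 to 65.3 CPM in the IP + LC tumors. Bop1 rose by 0.97, with 41.3, 18.8 and 14.4 CPM against 48.6, 47.3 and 37 CPM. Its groups overlapped through LC replicate 1, the value was 1.42 without that tumor, and the call was lost when any other tumor was left out (adjusted p from 0.107 to 0.243, edgeR). The ratio of Pes1 to Wdr12 UMIs was 2.33, 1.58 and 1.09 in the LC tumors and 0.822, 0.93 and 1.18 in the IP + LC tumors, and the groups overlapped.

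Ebna1bp2, an early assembly factor and the most abundant of the large-subunit factors, had 126, 72.1 and 68.6 CPM in the LC tumors and 135, 135 and 121 CPM in the IP + LC tumors. LC replicate 1 again lay within the IP + LC range. The log2 fold change was 0.58 (SE 0.26, adjusted p = 0.129, edgeR) and, without LC replicate 1, 0.90 (adjusted p = 0.000229). Nip7, which takes part in the processing of the precursor, had 0.54 and did not pass the test, and it passed at 0.80 without LC replicate 1. Wdr74, a partner of a remodelling ATPase, did not pass the filter, with 3, 3 and 2 UMIs in the LC tumors and 9, 12 and 7 in the IP + LC tumors. Its 28 UMIs against 8 gave a ratio of 2.7 per UMI sequenced, with an exact 95% interval from 1.2 to 6.86 that covers counting error only.

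LC replicate 1 stood apart in a way that recurred across these genes. It was above both other LC tumors in 29 of the 40 genes (72.5%), against 41.7% of all tested genes, and below both in 6 (15%), against 43.8%. It was at or above the lowest IP + LC tumor in 17 genes (42.5%), a smaller share than the 58.2% of all tested genes. The groups overlapped in 16 genes, and in 15 of these every IP + LC tumor was above LC replicates 2 and 3. Against these 2 tumors alone, every IP + LC tumor was above both in 38 of the 40 genes, which held for 34.3% of all tested genes. The exceptions were Rrp12 and Nop10. In the fit without LC replicate 1, 38 of the 40 genes rose and Nop10 fell, with a median log2 fold change of 1.37, while 28.3% of all genes tested in that fit were higher and 28.7% were lower.

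The position of LC replicate 1 went with transcript length. Its difference from the mean of LC replicates 2 and 3 on the log2(CPM + 1) scale had a median of 0.71 over the 40 genes, with a range from -1.87 to 2.17. Across the 40 genes the Spearman correlation of this difference with the length of the longest coding transcript was -0.53, and across 10806 tested genes it was -0.40. These are descriptions across genes that share the same libraries. In the 13 genes with transcripts under 2000 nucleotides the IP + LC tumors exceeded LC replicate 1 by a median of 0.03, in the 15 from 2000 to under 3500 nucleotides by 0.45, and in the 12 of 3500 nucleotides and more by 1.19. The difference of the IP + LC tumors from LC replicates 2 and 3 had medians of 1.48, 1.27 and 1.30 in the same classes, and its correlation with length was -0.02. The part of length and depth in the result was not tested.

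**Figure D4:**
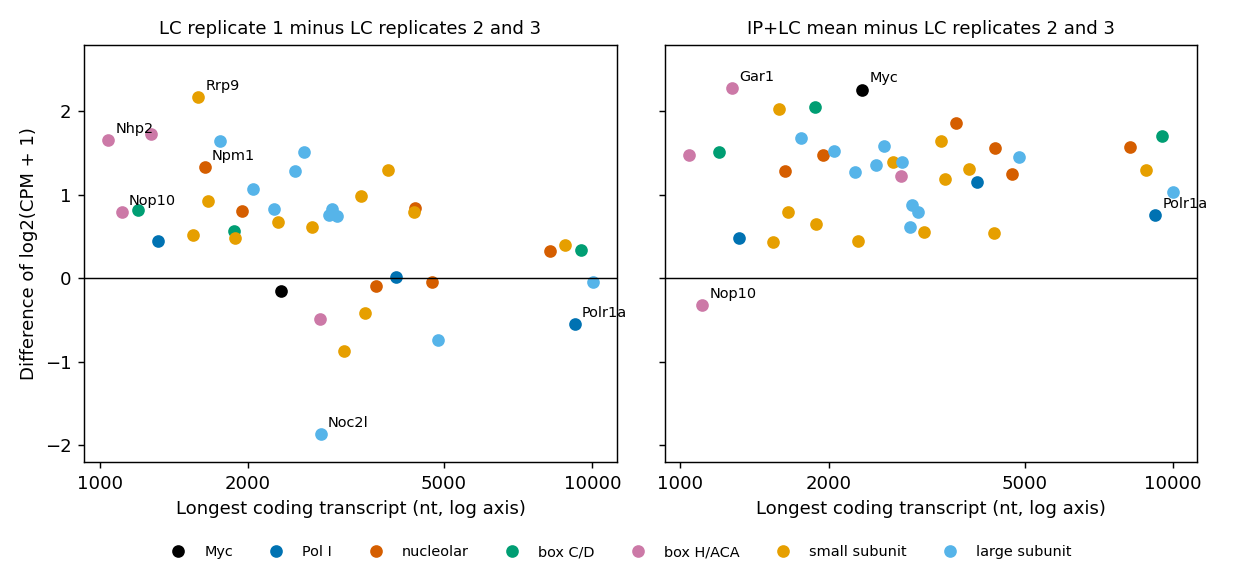
Difference of log2(CPM + 1) (y axis) for each of the 40 tested genes against the length of its longest coding transcript (x axis, nucleotides, log axis), for LC replicate 1 minus LC replicates 2 and 3 and for IP + LC minus LC replicates 2 and 3. The first difference is lower in longer transcripts (Spearman -0.53), and the second has no such slope (-0.02).

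Some of these genes have near-identical copies elsewhere or overlap a gene on the other strand, so their UMIs are less certain. Stretches of at least 81 nucleotides with at least 95% identity to transcripts of other genes covered 87.8% of the Ddx18 transcript, 83.3% of Fbl, 60.5% of Pes1, 53.8% of Npm1, 39.2% of Nop56, 32.6% of Tsr1 and 20.8% of Noc2l. Because the UMIs mark 3′ ends, the last 500 nucleotides were also considered. There the share was 100% in Noc2l, 82% in Nop56, 79.8% in Fbl, 72.2% in Bysl, 67.8% in Ddx18, 63.8% in Polr1b and 43.4% in Tsr1, from 21% to 28.8% in Dkc1, Mybbp1a, Nip7 and Nop58, and 0% in Npm1 and Pes1. Tsr1, Noc2l and Bysl overlap a gene on the opposite strand (Srr, Samd11 and Ccnd3), and whether the strand was used in counting is not given in the sources used here. In the 27 tested genes with less than 20% both of the whole transcript and of its last 500 nucleotides in such stretches, 17 rose, and the median log2 fold change was 1.09.

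Other genes of ribosome biogenesis, 123 in all, were listed by role, and 117 of them were tested. Of these, 56 rose (47.9%, against 16.8% of all tested genes), 2 fell and the median log2 fold change was 0.70. The count moved with single tumors, from 23 without IP + LC replicate 2, where 7.61% of all genes were higher, to 86 without LC replicate 1, where 28.3% were. By role, 4 of 11 further genes of RNA polymerase I transcription rose, 18 of 40 of the small subunit, 26 of 46 of the large subunit, 5 of 8 that assemble small nucleolar ribonucleoproteins, and 3 of 12 of the exosome, a nuclease that trims the rRNA. Without LC replicate 1 these counts were 6 of 11, 29 of 40, 36 of 46, 6 of 8 and 9 of 12, in the same order. The 4 of RNA polymerase I were Cd3eap (1.39), Rrn3 (1.20), Taf1d (0.69) and Ubtf (0.64), the 5 that assemble particles were Nufip1 (1.27), Znhit6 (1.18), Ruvbl2 (0.87), Ruvbl1 (0.79) and Tgs1 (0.78), and the 3 of the exosome were Exosc8 (1.11), Exosc2 (1.06) and Dis3 (0.70), in log2 fold change. These 3 sets were named because they were small, after their values were seen. Cd3eap, Rrn3, Nufip1, Znhit6 and Exosc2 were called whichever tumor was left out, and the calls of the other 7 were lost when some single tumors were left out. Dis3 and Tgs1 were lost without any 1 of the IP + LC tumors, and Dis3 also without LC replicate 2 and Tgs1 without LC replicate 3 (adjusted p up to 0.272 and 0.14, edgeR). Ruvbl2 was lost without any tumor but LC replicate 1 (up to 0.204), Exosc8 without LC replicates 2 or 3 or IP + LC replicates 1 or 2 (up to 0.145), and Ruvbl1 without LC replicate 3 or IP + LC replicate 1 (up to 0.121). Ubtf and Taf1d were lost without LC replicate 2 or IP + LC replicates 1 or 2 (up to 0.127 and 0.124). Dis3 was also lost with DESeq2 and with a replicate block, and Ruvbl2, Exosc8, Ruvbl1 and Nufip1 with thinned counts.

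The 3 largest rises on this list were in Sdad1 (16.9 ± 7.5 to 54.9 ± 10.3 CPM, SD, n = 3), with a log2 fold change of 1.61, and in Pwp2 (8.58 ± 1.78 to 24.1 ± 1.5 CPM) and Nol9 (10.5 ± 0.444 to 30.6 ± 2.38 CPM), with 1.53 each. Sdad1 and Nol9 act on the large subunit and Pwp2 in the processome. The falls were in Exosc7, an exosome subunit (97.2 ± 9.12 to 52.4 ± 4.06 CPM, log2 fold change -0.89, adjusted p = 0.0103, edgeR), and in Sbds, which frees the large subunit for translation (118 ± 25.8 to 71.7 ± 8 CPM, -0.73, adjusted p = 0.0389). The call of Sbds was lost without LC replicate 3 or any 1 of the IP + LC tumors (adjusted p from 0.12 to 0.161, edgeR). It was also lost without the filter on low counts, and the call of Exosc7 was lost in none of its 16 alternatives.

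The ribosomal proteins are the parts that these factors assemble. The cytosolic ribosomal protein genes were taken by symbol, so the list also holds genes with like symbols, such as Rpl7l1 and Rpl22l1. Of 80 tested, 1 (Rpl7l1, 0.56) rose and 5 fell, and the median log2 fold change was -0.09. The 5 were Rps27, Rpl22l1, Rps14, Rps15 and Rpl21, named after their values were seen. Of all tested genes, 16.8% rose and 19.6% fell. The summed level of this list was 109127 CPM in LC replicate 1, 67236 and 68333 CPM in the other LC tumors and 75058 to 76194 CPM in the IP + LC tumors. Without LC replicate 1, 31 rose, 7 fell and the median was 0.18, beside 28.3% higher and 28.7% lower of all genes in that fit. Of 74 mitochondrial ribosomal protein genes 7 rose and 4 fell, with a median of 0.14, and without LC replicate 1, 32 rose and 4 fell, with a median of 0.29.

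Marker lists of dividing cells and of other cell types were compared between the same groups. The sum of 8 proliferation markers, none of which was at 0 in any tumor, was 582 CPM in LC replicate 1, 122 and 123 CPM in the other LC tumors and 979 to 1128 CPM in the IP + LC tumors, and 7 of the 8 rose, against 16.8% of all tested genes. The calls of Mki67, Top2a and Bub1 held in each setting in which they were tested, while Ccnb1 was called in 11 of 17, Birc5 in 10 of 17, Plk1 in 10 of 16 and Aurkb in 11 of 16 settings, and without LC replicate 1 all 8 rose. In the sum of these markers and in that of the 41 genes the IP + LC tumors were highest, LC replicate 1 was next and the other LC tumors were lowest. The sum of the 41 genes was 3551, 2021 and 2015 CPM in LC replicates 1, 2 and 3 and 5078, 5148 and 4667 CPM in the IP + LC tumors. All 8 markers of endothelium fell, from sums of 1629 to 2600 CPM in the LC tumors to 458 to 579 CPM, and 7 of 8 markers of type 2 alveolar cells fell, against 19.6% of all tested genes. Markers of B cells fell in 4 of 6, with sums of 634 to 685 CPM against 257 to 639 CPM, and those of T cells in 0 of 5 tested (edgeR, DESeq2 and voom, also 0 at an unadjusted p below 0.05), with sums of 89.5 to 121 against 81.9 to 166 CPM.

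Of 8 macrophage markers, Msr1, C1qa and Adgre1 rose and Lyz2 fell, beside 16.8% higher and 19.6% lower of all tested genes. Of the 8, 6 had a positive log2 fold change and the median was 0.71. Adgre1 was called in 8 and C1qa in 10 of 17 settings. Without LC replicate 1, 6 rose, Lyz2 fell and the median was 1.21, beside 28.3% higher and 28.7% lower of all genes in that fit. The sums of all 8, 13047 to 15255 CPM in the LC tumors and 7465 to 9038 CPM in the IP + LC tumors, were mostly Lyz2. The other 7 summed to 1837, 673 and 519 CPM in LC replicates 1, 2 and 3 and to 1779 to 2192 CPM in the IP + LC tumors. Of 8 fibroblast markers, Col1a1, Fn1 and Col1a2 rose and Dcn, Dpt, Lum and Pdgfra fell, with sums of 2149 to 2415 CPM and of 2401 to 2404 CPM. Only Cd3e and Cd8a, of T cells, were at 0 in a tumor among these marker lists, both in LC replicate 1. The part of these cells in the levels of the ribosome biogenesis genes was not tested.

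**Figure D5:**
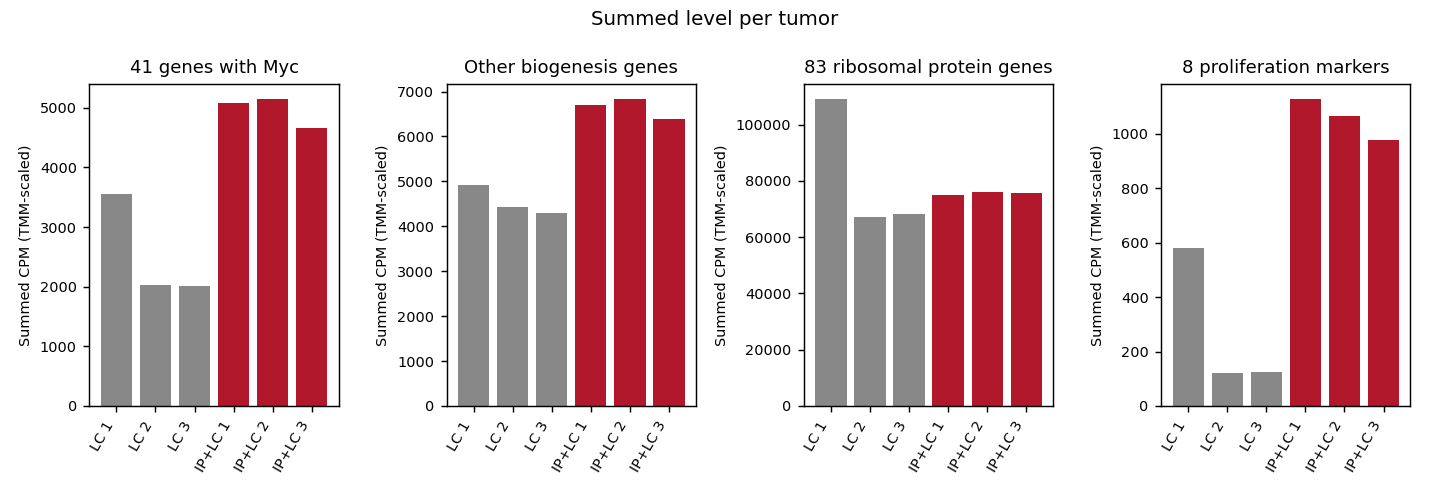
Summed CPM after TMM scaling (y axis, from 0) of gene lists in each of the 6 tumors (x axis). The sums of the 41 genes and of the proliferation markers are highest in the IP + LC tumors and intermediate in LC replicate 1, and the sum of the cytosolic ribosomal proteins is highest in LC replicate 1 at 109127 CPM.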

How the data were processed

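RNA of 6 tumors was sequenced by 3′ barcoding with UMIs of 10 nucleotides. Per the labels and the study's methods, the authors used UMI-tools 1.1.1, Trim Galore 0.6.7, HISAT2 2.2.1 on GRCm38 and featureCounts 2.0.1. The deposited tables hold raw UMI counts, 1 value per gene and tumor. Which annotation release was used, and whether the strand was used, is not given in the sources used here. Sequencing errors and equal UMIs can shift such counts.

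Counts were analysed in R 4.3.3 with edgeR 4.0.16. The filter was filterByExpr (minimum count 10, total 15, 3 libraries). Libraries were scaled by TMM and groups compared by the quasi-likelihood test without a block. The Benjamini-Hochberg adjustment ran over 11240 genes, with a limit of 0.1. P-values set the difference between the groups against the spread between these tumors. The procedure was tested on simulated data. Depth was 592733 to 1631066 UMIs per library. Lengths, coordinates and copies came from GENCODE M21, promoter windows from RefSeq. CPM are per 1000000 UMIs of the tested genes after TMM scaling, and SDs are over 3 tumors.

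The genes and lists were chosen with earlier results of these data known. Full statistics were given for Myc and, in each role, for the genes with the smallest p, the largest p and the most UMIs. On the list of other ribosome biogenesis genes, the 3 called genes with the highest and the 3 with the lowest log2 fold change were named, with at least 10 UMIs in every library of the higher group. Only 2 were lower. Alternatives were other scalings, filters, tests (DESeq2 1.42.0, voom of limma 3.58.1), a replicate block, thinned counts, a limit of 0.05 and each tumor left out.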

Additional observations from a re-analysis of the deposited data

How the results depend on the processing

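The number of the 40 genes that rose (27) lay between 19 and 38 over the 17 settings tried, with medians from 0.97 to 1.37. In every setting 14 rose: Ddx21, Dkc1, Fbl, Gnl3, Mybbp1a, Ncl, Nolc1, Nop14, Nop56, Nop58, Polr1a, Utp20, Wdr12 and Wdr43. Myc, Rrp1b and Noc2l rose in each of the 16 settings that tested them. How many of all genes rose in every setting was not counted. The number that rose was 22 with DESeq2, 38 with voom and sample quality weights, 32 without a filter, 20 with counts thinned to the smallest library and 19 to 38 with 1 tumor left out. Bop1, Bysl, Nop16 and Nop2 were lost whenever a tumor other than LC replicate 1 was left out. The number that fell was 0, and 1 (Nop10) with DESeq2 size factors, with upper quartile scaling and with at least 10 UMIs in every library, and 0 to 1 with 1 tumor left out. Rrp12 reversed to -0.07 without LC replicate 2 and was at most 0.54 with any other tumor left out. Of 236 further values for the 14 genes with full statistics besides Myc, 220 kept their direction and side of the limit and 15 newly passed it. Of the other ribosome biogenesis genes, 56 rose, 85 with voom, 32 with thinned counts and 23 to 86 with 1 tumor left out. The number that fell was 2, and 1 without a filter and 1 to 3 with 1 tumor left out. Of all genes 1885 rose, 3273 with voom, 1016 with thinned counts and 897 to 3324 with 1 tumor left out, while 2203 fell, 1363 with thinned counts and 1368 to 3367 with 1 tumor left out. With library size alone the median of all genes moved from 0.02 to 0.18 and the share of calls that were higher from 46.1% to 58.3%. No pairing of the tumors by replicate number is stated. The correlations of same-numbered tumors' deviations were 0.0251, -0.118 and 0.109, and those of differently numbered tumors lay between -0.138 and 0.124. With 3 tumors per group they cannot show whether tumors were paired. With a replicate block, 27 of the 40 genes rose (Bysl lost, Rrp9 gained), Myc had a log2 fold change of 2.40, and 1599 of all genes rose and 1811 fell. Wdr74, Mycn, Mycl and Mlxipl held too few UMIs to pass the filter.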
